A study of Mus musculus with 24 samples.

Results

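The genes described here encode 7 clock output factors: the bZIP proteins of Dbp, Tef, Hlf and Nfil3, the bHLH proteins of Bhlhe40 and Bhlhe41, and the repressor encoded by Ciart. They were chosen by symbol, and each was read from the probe set annotated to that symbol alone, the one with the highest mean signal where there was a choice, as there was for Ciart only. All 7 lay above the filter on mean level and so belong to the 11963 genes that were tested, out of 19938 genes with such a probe set. The tissue was the mediobasal hypothalamus, where the arcuate and ventromedial nuclei lie, and 24 arrays covered 2 conditions at 4 times of day with 3 arrays each. Times are zeitgeber times (ZT), in hours from lights on, and were ZT1, ZT7, ZT13 and ZT19. In timed sleep restriction (TSR), mice were gently handled to stop them from sleeping between ZT0 and ZT6 for 5 days running, had 2 days of free sleep, and then 5 more days of restriction. Control mice (CON) were left alone over the same time. The strain, spelled C57BL76J in the labels, and the absence of any named transgene are common to both conditions. The design text gives 3 mice for each condition and time, and age, sex and the day of tissue collection are not stated in the sources used here. The p-values rest on the spread among arrays of a group, which may in part be technical. The question, from the title of the series, was how timed sleep restriction affects daily transcript rhythms in this region.

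In the circadian clock, the proteins CLOCK and BMAL1 switch on genes whose promoters carry E-boxes, and PER and CRY proteins, themselves products of such genes, later shut this off. DBP, TEF and HLF are related bZIP activators that bind another motif, the D-box, and so pass the rhythm on to further genes. NFIL3 is a bZIP repressor that competes for the same motif. CIART is a repressor that acts on CLOCK and BMAL1, and BHLHE40 and BHLHE41 are bHLH repressors that bind E-boxes themselves. In many mouse tissues Dbp is among the genes of largest daily swing, and its transcript is highest late in the light phase.

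Promoter sequences are shown because the E-box is the motif by which the clock is known to drive several of these genes. The motif searched was CACGTG, which reads the same on both strands, in the 250 bases before each start site in the RefSeq table of build GRCm38.p6. The table holds a window for 6 of the 7 genes, all but Bhlhe40. In 3 of the 6 the letters were present. Of all 32851 windows of this length, 6.02% hold an E-box. Counted by gene, as the 3 of 6 are, 1854 of 27025 genes have a window with an E-box. In the stretches below, written 5′ to 3′ on the strand of the gene, the E-boxes are in capitals.
Ciart, chr3:95882258-95882374, minus strand: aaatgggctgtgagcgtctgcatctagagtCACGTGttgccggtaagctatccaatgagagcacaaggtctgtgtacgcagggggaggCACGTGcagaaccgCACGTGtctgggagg
Bhlhe41, chr6:145865538-145865603, minus strand: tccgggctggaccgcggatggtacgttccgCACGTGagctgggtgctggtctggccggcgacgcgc
Tef, first start site, chr15:81802516-81802581, plus strand: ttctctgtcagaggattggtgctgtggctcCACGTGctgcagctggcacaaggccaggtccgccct
Tef, other start site, chr15:81811246-81811311, plus strand: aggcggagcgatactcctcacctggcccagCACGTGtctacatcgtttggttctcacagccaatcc

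Ciart held 3 E-boxes, whose first bases lay 116, 58 and 44 bases before the start site. Only 20 of all windows in the table (0.061%) held 3 or more. The E-box of Bhlhe41 began 153 bases before its start site, and those of Tef 127 and 138 bases before its listed start sites, the other of which lies 8741 bases inside the annotated gene. The windows of Dbp, Hlf and Nfil3 held none. For Dbp and Nfil3 the listed start site lies 147 and 1839 bases inside the annotated gene, so the bases before its outer end were searched only in part or not at all. The variant AACGTG, searched on both strands, was in no window of these genes and in 3.85% of all windows. These are matches of letters and not measured binding.

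The values are deposited log2 probe-set signals, so 1 unit is a doubling, and signals of different probe sets are not compared with each other. In 4 arrays the interquartile range was narrow, 2.12 to 2.25 log2 units against 2.96 to 3.29 in the other 20, and the median gene lay -0.72 to -0.87 from its level in the typical arrays of the same group. These are TSR ZT1 replicate 3, TSR ZT13 replicate 2, and CON ZT19 replicates 2 and 3. Fits were made with all 24 arrays and with the 20 typical ones, where CON at ZT19 rests on 1 array and borrows its spread from the other groups. The median residual SD of a gene was 0.36 log2 units with 24 arrays and 0.11 with 20. The median gene differed between TSR and CON by -0.21, 0.00, -0.18 and 0.59 at ZT1, ZT7, ZT13 and ZT19 in the fit of 24 arrays, and by 0.04, 0.00, -0.00 and 0.08 in that of 20. The clock output genes differed in how far they moved in the narrow arrays. Relative to the typical mean of its group, Bhlhe40 stood there at -1.47 to -2.09 and Bhlhe41 at -1.304 to -2.15. Dbp, by contrast, stood at 0.06 in the narrow array of TSR ZT13.

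Dbp had the clearest daily course in control mice. Its log2 signal in the 3 CON arrays was 8.35, 8.38 and 8.29 at ZT1, then 9.30, 9.31 and 9.12 at ZT7. At ZT13 the CON arrays read 9.26, 9.42 and 9.51, and at ZT19 the typical array read 8.56 and the narrow ones 7.43 and 7.56. Control levels were thus high at ZT7 and ZT13, whose arrays overlapped, and lower at ZT1 and ZT19.

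In TSR mice Dbp read 8.71, 8.63 and, in the narrow array, 7.92 at ZT1, and 8.43, 8.42 and 8.46 at ZT7. At ZT13 it read 8.17, 8.40 and, in the narrow array, 8.35, and at ZT19 8.26, 8.21 and 8.12. No TSR array reached the lowest control array of ZT7 or ZT13, and the typical TSR arrays were highest at ZT1. The difference, TSR minus CON, was -0.81 at ZT7, from a mean of 9.24 ± 0.11 to 8.44 ± 0.02 (SD, n = 3 each), a TSR to CON ratio of 0.571. Its standard error was 0.08 in the fit of 20 arrays, which it passed (limma adjusted p = 1.87e-07), and 0.25 in the fit of 24, which it did not (limma adjusted p = 0.280). ZT7 holds no narrow array, so only the estimate of the spread differs between these fits.

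At ZT13 the Dbp difference was -1.11 ± 0.09 (SE) with 20 arrays, a ratio of 0.463 (limma adjusted p = 1.68e-08). With 24 arrays it was -1.09 ± 0.25 (limma adjusted p = 0.0564). Of all tested genes, 0.276% differed by more than Dbp at ZT13 in the 20 arrays. For the other genes of the set called there, this share was 1.88% for Bhlhe41, 8.69% for Ciart and 15.4% for Tef. It was 26.5% for Nfil3 and 44.7% for Hlf. At ZT1 the direction was the opposite, with Dbp higher in TSR by 0.33 ± 0.09 in the 20 arrays (limma adjusted p = 0.0178). That call at ZT1 was lost without CON ZT1 replicate 3 or either typical TSR array of that time, with a limma adjusted p of up to 0.171. At ZT19 the 20 arrays gave -0.36 ± 0.11 (limma adjusted p = 0.0207) against 1 control array, and the 24 arrays gave 0.35 ± 0.25 with the opposite sign.

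**Figure D1:**
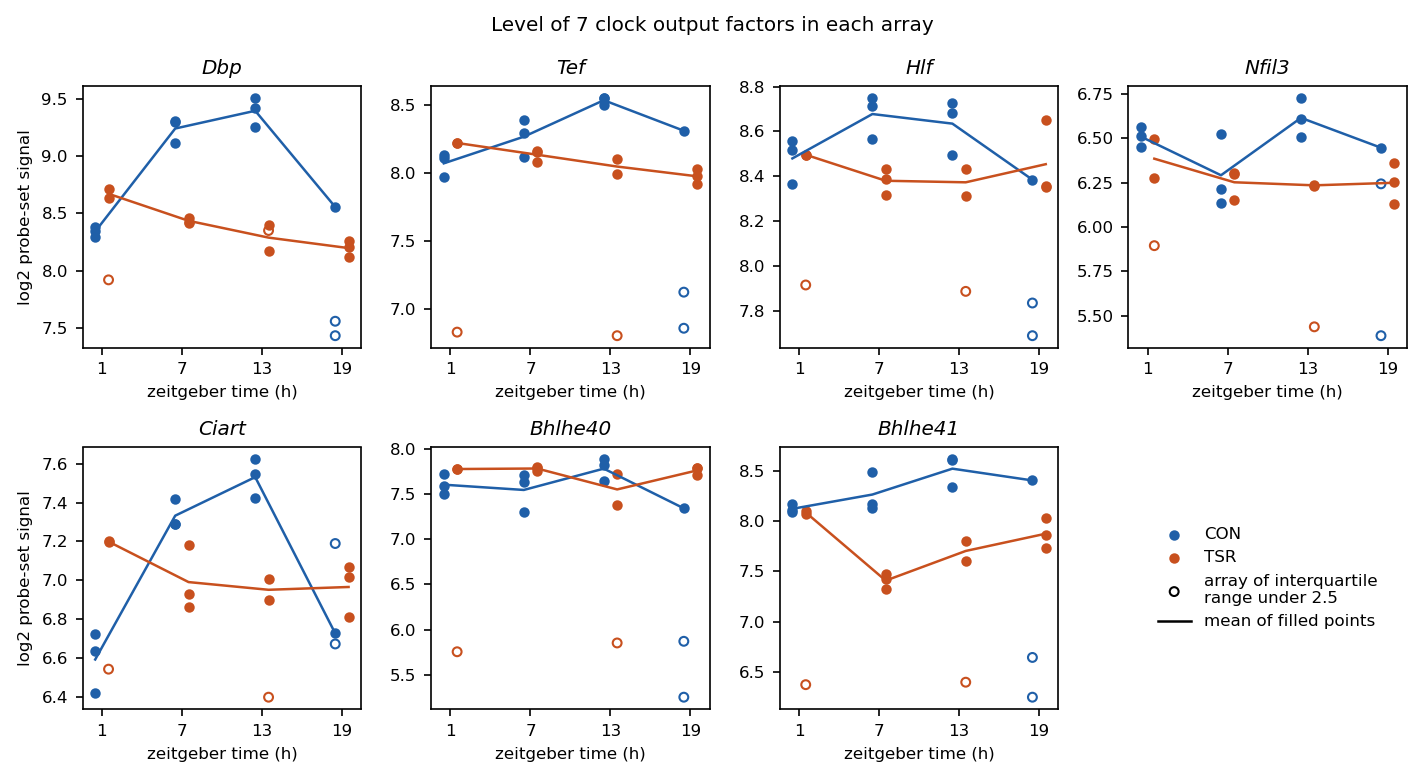
Log2 probe-set signal of each gene (vertical axis, own scale per panel) against zeitgeber time in hours, with 1 point per array, CON in blue and TSR in orange; open points are the 4 narrow arrays and lines join the means of the typical arrays. In Dbp and Ciart the control line is highest at ZT7 and ZT13 and the TSR line starts above it at ZT1, while the Bhlhe41 TSR line dips at ZT7.

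Tef, the second of the D-box activators, followed a shallower course. In CON its arrays read 8.13, 8.12 and 7.97 at ZT1, 8.12, 8.39 and 8.30 at ZT7, and 8.55, 8.55 and 8.50 at ZT13. At ZT19 they read 8.31 in the typical array and 7.13 and 6.86 in the narrow ones. In TSR the arrays read 8.23 and 8.22 at ZT1 with 6.83 in the narrow one, 8.16, 8.17 and 8.08 at ZT7, 8.10 and 7.996 at ZT13 with 6.81 in the narrow one, and 8.03, 7.98 and 7.92 at ZT19. The means of the typical TSR arrays ran from 8.22 at ZT1 to 7.98 at ZT19, with overlap between neighbouring times from ZT7 on. Control arrays were highest at ZT13 and did not overlap there with TSR. In the 20 arrays Tef was lower in TSR at ZT13, at -0.49 ± 0.08 (limma adjusted p = 7.03e-05), from 8.54 ± 0.03 (SD, n = 3) to 8.05 ± 0.08 (SD, n = 2). With 24 arrays it was -0.90 ± 0.37 there and did not pass (limma adjusted p = 0.286). It was also lower at ZT19, where it differed by -0.33 ± 0.10 (limma adjusted p = 0.0216), while the 24 arrays gave 0.54 ± 0.37 there. At ZT1 and ZT7 the differences were 0.15 ± 0.08 and -0.13 ± 0.07, and neither passed (limma adjusted p = 0.233 and 0.186), and at ZT1 the 24 arrays gave -0.31 ± 0.37.

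Hlf, the remaining activator, had lower TSR values at ZT7 and ZT13. Its CON arrays read 8.56, 8.52 and 8.37 at ZT1, 8.75, 8.71 and 8.57 at ZT7, and 8.49, 8.68 and 8.73 at ZT13, with 8.38 in the typical and 7.83 and 7.69 in the narrow arrays of ZT19. Its TSR arrays read 8.50 and 8.50 at ZT1 with 7.92 in the narrow one, and 8.32, 8.43 and 8.39 at ZT7. They read 8.31 and 8.43 at ZT13 with 7.89 in the narrow one, and 8.65, 8.35 and 8.36 at ZT19. Every TSR array lay under every control array at ZT7 and at ZT13, though the ZT13 gap was narrow, from 8.43 to 8.49. In the 20 arrays Hlf was lower in TSR, at -0.30 ± 0.09 at ZT7 (limma adjusted p = 0.0132) and -0.26 ± 0.10 at ZT13 (limma adjusted p = 0.0307). The call at ZT7 was lost without CON ZT7 replicate 1 or TSR ZT7 replicate 1 (limma adjusted p up to 0.0594), and that at ZT13 without CON ZT13 replicate 2 or 3 or either typical TSR array of that time (up to 0.205). At ZT1 and ZT19 the differences of 0.02 ± 0.10 and 0.07 ± 0.12 did not pass (limma adjusted p = 0.932 and 0.693). With 24 arrays Hlf differed by -0.18 ± 0.21, -0.30 ± 0.21, -0.42 ± 0.21 and 0.48 ± 0.21 at the 4 times and passed at none (limma adjusted p = 0.749, 0.999994, 0.391 and 0.0568).

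Nfil3, the repressor that competes with these activators, was lower at ZT13 too. Its CON arrays read 6.73, 6.61 and 6.51 at that time, and its TSR arrays 6.23, 6.24 and, in the narrow one, 5.44. At the other times the 2 conditions overlapped when all arrays were counted. CON read 6.45, 6.56 and 6.51 at ZT1 and 6.52, 6.21 and 6.13 at ZT7, and 6.45 in the typical array of ZT19 with 6.24 and 5.39 in the narrow ones. TSR read 6.27 and 6.49 at ZT1 with 5.89 in the narrow array, 6.30, 6.15 and 6.30 at ZT7, and 6.36, 6.26 and 6.13 at ZT19. The difference at ZT13 was -0.38 ± 0.12 in the 20 arrays (limma adjusted p = 0.0120), and it no longer passed without either typical TSR array of that time (up to 0.0595). With 24 arrays it was -0.645 ± 0.23 and did not pass (limma adjusted p = 0.227). At ZT19 the 20 arrays gave -0.20 and the 24 arrays 0.22, and neither passed. At ZT13 both the activator Dbp and its competitor Nfil3 were thus lower in TSR, with ratios of 0.463 and 0.769.

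Ciart, the repressor of CLOCK and BMAL1, resembled Dbp in controls. Its CON arrays read 6.42, 6.72 and 6.63 at ZT1, 7.29, 7.42 and 7.29 at ZT7, and 7.55, 7.42 and 7.62 at ZT13. At ZT19 they read 6.73 in the typical array and 7.19 and 6.67 in the narrow ones, which stand at 0.46 and -0.05 from the typical one, beside -0.72 and -0.73 for the median gene. Its TSR arrays read 7.19 and 7.20 at ZT1 with 6.54 in the narrow one, 6.86, 7.18 and 6.93 at ZT7, 7.005 and 6.90 at ZT13 with 6.40 in the narrow one, and 7.07, 6.81 and 7.01 at ZT19. With the probe set used, typical TSR arrays thus lay above all controls at ZT1 and under all controls at ZT7 and ZT13. In the other Ciart probe set the conditions overlapped at ZT7, where TSR replicate 3 read 7.12 against 6.90 to 7.42 in CON. That probe set also fell in the narrow arrays of CON ZT19, to 5.33 and 5.29 from 6.06 in the typical one.

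In the 20 arrays Ciart was higher in TSR at ZT1 by 0.61 ± 0.11, a ratio of 1.52 (limma adjusted p = 0.00143). Of all tested genes, 0.794% differed by more at that time, and 10.7% differed by more than Dbp. It was lower at ZT7, by a difference of -0.34 ± 0.10 (limma adjusted p = 0.0121), and at ZT13, by a difference of -0.58 ± 0.11 (limma adjusted p = 2.47e-04). The call at ZT7 was lost without TSR ZT7 replicate 1 or 3 (limma adjusted p up to 0.0712). At ZT19 the difference of 0.24 ± 0.14 did not pass (limma adjusted p = 0.198). With 24 arrays the differences were 0.39 ± 0.19 at ZT1 and -0.77 ± 0.19 at ZT13, and neither passed (limma adjusted p = 0.745 and 0.0719). The other Ciart probe set gave 0.70 ± 0.16 at ZT1 (limma adjusted p = 0.00945) and -0.63 ± 0.16 at ZT13 (limma adjusted p = 0.00355) in the 20 arrays. At ZT7 it gave -0.29 ± 0.14 and did not pass (limma adjusted p = 0.148), and at ZT19 0.59 ± 0.20, which did (limma adjusted p = 0.0408). The 2 probe sets therefore gave the same sign at each time in the 20 arrays and different calls at ZT7 and ZT19.

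Bhlhe41, a bHLH repressor, had lower TSR values at ZT7 and ZT13. Its TSR arrays read 7.33, 7.48 and 7.42 at ZT7 against 8.17, 8.49 and 8.13 in CON. At ZT13 they read 7.602 and 7.80, with 6.40 in the narrow array, against 8.34, 8.61 and 8.61. At ZT1 the typical arrays of both conditions nearly coincided, 8.07 and 8.10 in TSR against 8.17, 8.09 and 8.11 in CON, while the narrow TSR array read 6.38. At ZT19 TSR read 8.03, 7.86 and 7.73 against 8.40 in the typical and 6.25 and 6.65 in the narrow control arrays. The 20 arrays gave -0.85 ± 0.10 at ZT7, a ratio of 0.553 (limma adjusted p = 2.58e-06), and -0.82 ± 0.11 at ZT13, a ratio of 0.567 (limma adjusted p = 9.44e-06). At ZT19 they gave -0.53 ± 0.14 (limma adjusted p = 0.0107), and at ZT1 -0.04 ± 0.11, which did not pass (limma adjusted p = 0.864). With 24 arrays the value at ZT7 kept its size but not its call (-0.85 ± 0.46, limma adjusted p = 0.999994). At ZT13 the 24 arrays gave -1.25 ± 0.46, which did not pass (limma adjusted p = 0.234), and at ZT19 the opposite sign, 0.77 ± 0.46 (0.140).

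Bhlhe40, the close relative of Bhlhe41, had no lower TSR values at ZT7. Its TSR arrays read 7.76, 7.80 and 7.79 at ZT7 against 7.63, 7.71 and 7.30 in CON. At ZT19 they read 7.79, 7.78 and 7.71 against 7.34 in the typical control array and 5.25 and 5.87 in the narrow ones. At both of these times every TSR array lay above every control array. At ZT1 Bhlhe40 read 7.78 and 7.77 in the typical and 5.76 in the narrow TSR array, against 7.58, 7.72 and 7.50 in CON. At ZT13 it read 7.38, 7.72 and, in the narrow array, 5.85, against 7.64, 7.82 and 7.88.

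The Bhlhe40 difference at ZT19 was the only one among these genes that passed with 24 arrays, 1.61 ± 0.50 (limma adjusted p = 0.0217). There 55.4% of all tested genes passed and 44.2% were higher, in a comparison where 2 of 3 control arrays are narrow. The call of 24 arrays was lost without CON ZT19 replicate 2 or 3 or TSR ZT19 replicate 1 or 2 (limma adjusted p up to 0.129) and in a fit of only the arrays of ZT19 (0.0666). With 20 arrays it was 0.42 ± 0.14 (limma adjusted p = 0.0374), and it was lost without TSR ZT19 replicate 1 or 2 (limma adjusted p up to 0.0773). At ZT7 the 20 arrays gave 0.24 ± 0.10 (limma adjusted p = 0.08999), at ZT13 -0.23 ± 0.11 (limma adjusted p = 0.102) and at ZT1 0.17 ± 0.11 (limma adjusted p = 0.330). In the 24 arrays these were 0.24, -0.80 and, with the opposite sign, -0.50, each with an SE of 0.50. When the 20 arrays were quantile normalized again, Bhlhe40 passed as higher at ZT7 and as lower at ZT13, with differences of 0.25 and -0.27 (limma adjusted p = 0.0216 and 0.0153).

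Counted over the set, at ZT1 2 of 7 genes were higher in TSR in the 20 arrays, Dbp and Ciart, and 0 lower, where 10% of all tested genes passed, 6.95% higher and 3.09% lower. At ZT7 4 were lower, Dbp, Hlf, Ciart and Bhlhe41, and 0 higher, where 26.7% of all genes passed, 13.8% lower and 12.9% higher. At ZT13 6 were lower, all but Bhlhe40, where 45.9% passed, 21.9% lower and 24% higher. At ZT19 3 were lower, Dbp, Tef and Bhlhe41, and Bhlhe40 was higher, where 24.6% passed, 7.06% lower and 17.6% higher, although the 3 lower ones had the opposite sign with 24 arrays. ZT13 is thus the time at which most of the genes passed, at a time when the background share is also highest among the 4. The median difference over the 7 genes was 0.15 at ZT1, -0.30 at ZT7, -0.49 at ZT13 and -0.20 at ZT19 in the 20 arrays, beside the medians over all genes given above, and -0.29, -0.30, -0.80 and 0.48 in the 24.

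With all 24 arrays limma called 0 of the 7 genes at ZT1, ZT7 and ZT13, where 0.0502%, 0.460% and 0.418% of all genes passed, and Bhlhe40 alone at ZT19. At an unadjusted p under 0.05 the same fit held 0 genes at ZT1, 1 at ZT7, Dbp, and 5 at ZT13, Dbp, Tef, Nfil3, Ciart and Bhlhe41, where 4.10%, 5.50% and 13.7% of all genes were under it. Without regard to any fit, all 3 TSR arrays lay under all 3 control arrays for 4 genes at ZT7, where 18.8% of all genes did so, and for 6 at ZT13, where 24.5% did. Ciart was among the 4 of ZT7 only with the probe set used. All 3 TSR arrays lay above for 1 gene at ZT7, Bhlhe40, where 17.3% of all genes did so. At ZT19 Bhlhe40 alone lay above, where 44.6% did. At ZT1 the groups overlapped for all 7 genes, where 2.33% of all genes lay wholly above and 12.7% wholly below. Among the typical arrays 4 of the 7 lay wholly above at ZT1, Dbp, Tef, Ciart and Bhlhe40, where 32.6% of all genes did, and the 6 of ZT13 lay below, where 30.5% did. At ZT19, against 1 control array, 4 lay below and 2 above, where 30.5% and 49.1% of all genes did. In tissue RNA, fewer cells of a type and less RNA per cell cannot be told apart.

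**Figure D2:**
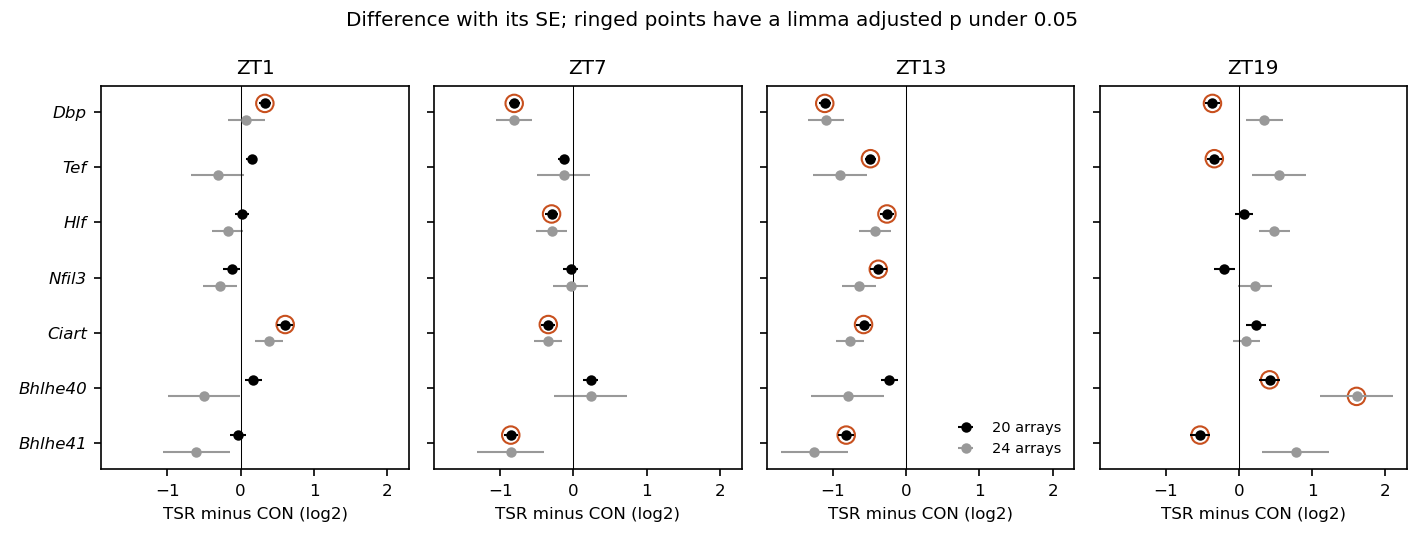
Difference in log2 signal, TSR minus CON (horizontal axis), with its moderated standard error for each gene at each time, in the fit of the 20 typical arrays (black) and of all 24 (grey); a ring marks a limma adjusted p under 0.05. At ZT7 the black and grey points coincide and only their bars differ, whereas at ZT19 Dbp, Tef, Nfil3 and Bhlhe41 lie on opposite sides of 0.

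Averaged over the 4 times in the 20 arrays, 4 of the genes were lower in TSR and 1 higher, where 56.3% of all genes passed, 22.8% lower and 33.5% higher. The difference was -0.56 ± 0.06 for Bhlhe41 (limma adjusted p = 2.10e-07), -0.49 ± 0.04 for Dbp (4.75e-08), -0.20 ± 0.04 for Tef (4.59e-04) and -0.19 ± 0.06 for Nfil3 (0.0147). The sign of the Tef average turned when arrays were weighted. Bhlhe40 was higher by 0.15 ± 0.06 (limma adjusted p = 0.0367), a call that 11 of the 19 arrays that could be left out each ended, with a limma adjusted p of up to 0.131. Hlf differed by -0.12 ± 0.05 and did not pass (limma adjusted p = 0.0503). When the 20 arrays were quantile normalized again, Hlf passed as lower, at -0.16 (limma adjusted p = 0.00135), and Bhlhe40 no longer passed (0.0693). Ciart differed by -0.02 ± 0.06 (limma adjusted p = 0.790), its higher level at ZT1 standing against its lower levels at ZT7 and ZT13. With 24 arrays limma called 0 of the 7 in this average, where 2.40% of all genes passed. At an unadjusted p under 0.05 it held 2, Dbp at -0.37 and Bhlhe41 at -0.48, where 16.1% of all genes were under it.

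The 24-h rhythm was tested from the contrasts of ZT1 against ZT13 and ZT7 against ZT19, and amplitudes are those of the fitted cosine, measured mean to peak. Sampling every 6 h cannot separate it from some shorter periods. In CON, 4 of the 7 genes passed in the 20 arrays, where 21.4% of all genes did. Dbp had an amplitude of 0.63 log2 units, a peak to trough ratio of 2.40, with a fitted peak at ZT10.8 (limma adjusted p = 1.99e-08). It ranked 6 among all tested genes by p and 15 by amplitude. Ciart had an amplitude of 0.56 with its peak at ZT10.8 as well (limma adjusted p = 2.64e-06).

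Tef had a fitted peak at ZT13.4 and an amplitude of 0.23 (limma adjusted p = 4.27e-04), and with 24 arrays a peak at ZT8.94 and an amplitude of 0.48, which did not pass (0.158). Bhlhe41 peaked at ZT14.3 with an amplitude of 0.21 (limma adjusted p = 0.0152), and with 24 arrays at ZT8.26 with 0.615, which did not pass (0.158). The order of the peaks of Dbp, Tef and Bhlhe41 thus turned with the narrow arrays of CON ZT19, and without them it rests on 1 array at that time. The call of Bhlhe41 in the 20 arrays was lost without CON ZT1 replicate 2 or 3 or CON ZT13 replicate 2 or 3 (limma adjusted p up to 0.0671). Hlf (0.17), Bhlhe40 (0.13) and Nfil3 (0.09) had smaller amplitudes and did not pass (limma adjusted p = 0.0846, 0.230 and 0.527). With 24 arrays only Dbp passed in CON, with an amplitude of 0.88 and a peak at ZT9.48 (limma adjusted p = 0.00711), where 0.109% of all genes passed, and it passed without any 1 of the 24 arrays as well. Ciart then had an amplitude of 0.53 with its peak at ZT11.2 (limma adjusted p = 0.0581).

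In TSR, 2 of the 7 genes passed in the 20 arrays, where 21.5% of all genes did. Dbp had an amplitude of 0.23 with its fitted peak at ZT3.13 (limma adjusted p = 0.00378). Bhlhe41 had an amplitude of 0.30 with its peak at ZT21.6 (limma adjusted p = 0.00175). The amplitude of Ciart was 0.12 and that of Tef 0.12, and neither passed (limma adjusted p = 0.256 and 0.0882). With 24 arrays limma called 0 of the 7 in TSR, where 0.0920% of all genes passed, and 0 also at an unadjusted p under 0.05, where 2.38% were under it. The amplitude was then 0.13 for Dbp and 0.26 for Bhlhe41.

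The rhythm itself differed between the conditions for 4 of the 7 genes in the 20 arrays, where 29.0% of all genes passed. For Dbp the fitted cosine of the difference had an amplitude of 0.75 (limma adjusted p = 3.74e-07), for Ciart 0.66 (2.96e-05), for Bhlhe41 0.42 (0.00207) and for Tef 0.33 (0.00104). These 4 calls held when any of the 19 arrays that could be left out was omitted, and only CON ZT19 replicate 1 could not be, as it is the last control array of its time. For Hlf the amplitude was 0.23 (limma adjusted p = 0.0521), for Bhlhe40 0.22 (0.102) and for Nfil3 0.15 (0.340). With 24 arrays limma called 0 of the 7, where 0.259% of all genes passed. At an unadjusted p under 0.05 it held 4, Dbp, Ciart, Hlf and Bhlhe41, where 11.7% of all genes were under it. The other Ciart probe set gave 0.80 for the difference in the 20 arrays (limma adjusted p = 2.71e-04) and passed in TSR as well, with an amplitude of 0.33 (limma adjusted p = 0.0287). Over the 7 genes the median amplitude was 0.21 in CON and 0.12 in TSR in the 20 arrays, beside 0.11 and 0.11 over all genes, and 0.53 and 0.11 in the 24, beside 0.34 and 0.11.

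**Figure D3:**
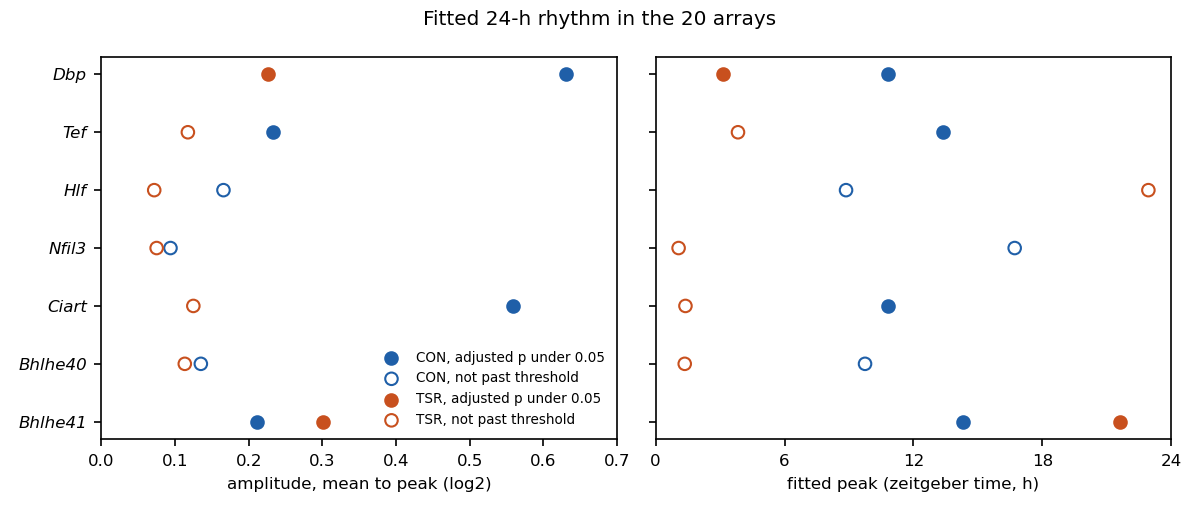
Amplitude in log2 units (left) and fitted peak in hours of zeitgeber time (right) of the 24-h cosine for each gene in the 20 typical arrays, CON in blue and TSR in orange, filled where the limma adjusted p is under 0.05. The amplitudes of Dbp, Ciart and Tef are smaller in TSR, from 0.63 to 0.23 in Dbp, while Bhlhe41 has 0.21 in CON and 0.30 in TSR, with fitted peaks at ZT14.3 and ZT21.6. With all 24 arrays the Bhlhe41 amplitude was the larger in CON, 0.615 against 0.26 in TSR.

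Among the 10 typical CON arrays the log2 signals of Dbp and Ciart had a Pearson r of 0.97, and among the 10 typical TSR arrays 0.51. Dbp and Tef had an r of 0.76 in CON and 0.81 in TSR. Tef and Bhlhe41 had an r of 0.83 in CON and 0.03 in TSR. Nfil3 and Dbp had an r of -0.03 in CON and 0.52 in TSR. Bhlhe40 and Bhlhe41 had an r of 0.54 in CON, 0.18 in TSR and -0.07 over all 20. These values describe arrays that share their times of day and their normalization, and the differences between conditions were not tested.

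**Figure D4:**
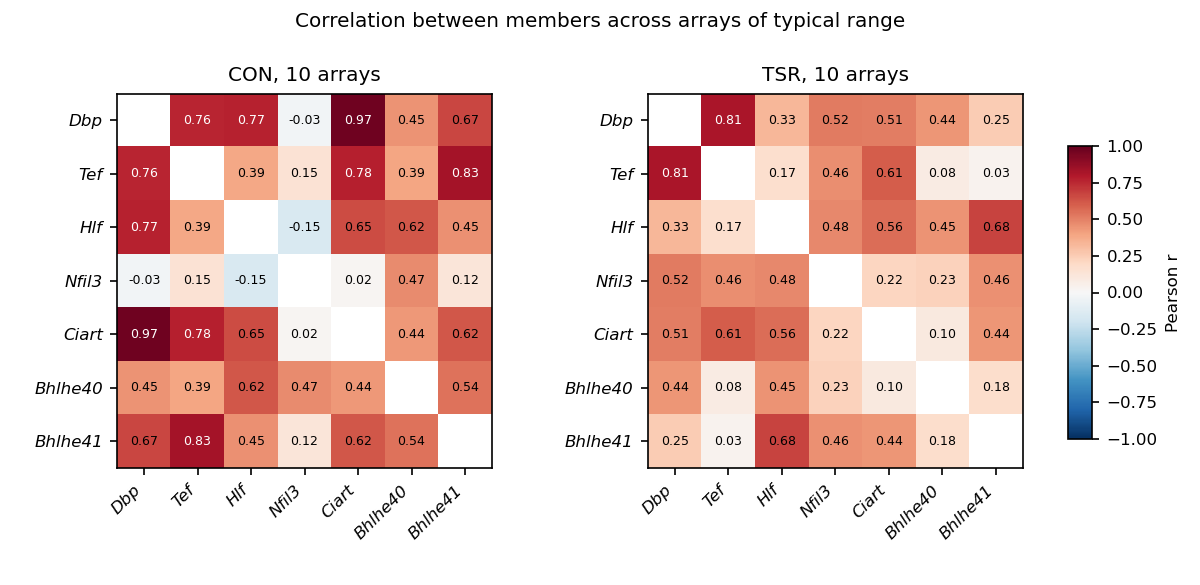
Pearson r between the log2 signals of each pair of genes over the 10 typical arrays of CON (left) and of TSR (right), in colour from -1 to 1. Dbp and Ciart stand out in CON at 0.97, and their cell in TSR reads 0.51.

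Over the 20 arrays the tested gene most like Dbp was Per2, a core clock repressor (r = 0.93), followed by AY036118 and Cyb5r3 (both 0.93), and over all 24 arrays these had an r of 0.80, 0.13 and 0.77. The genes most like Ciart were Per1 (0.87) and Per3 (0.86), also repressors of the core loop, and Zfp414 (0.82). No clock gene was among the 3 nearest of the other genes. Bhlhe41 was most like Gaa (0.97), Cnih2 (0.96) and Nisch (0.95), and Tef most like Ubald1, Arid1a and Myl6b (0.92, 0.92 and 0.91). Over all 24 arrays the r of Tef was -0.17 with Ubald1, 0.53 with Arid1a and 0.96 with Myl6b. For the other genes named here it was 0.61 to 0.985 over the 24. Hlf was most like Pias3, Cxxc4 and Slc27a3 (0.84, 0.84 and 0.83), Nfil3 most like Sympk, Nomo1 and Dctn2 (0.86, 0.85 and 0.85), and Bhlhe40 most like Prkag1, Oxnad1 and Stambpl1 (0.84, 0.83 and 0.83).

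The other genes of the pathway were read from 2 lists. For these lists and the markers below, the share of all genes to set beside a count is the one given above for that comparison. Of 13 core clock genes 11 were tested, and in the 20 arrays 7 were lower and 1 higher in TSR at ZT7, and 5 lower and 2 higher at ZT13. Nr1d1, a repressor also driven through E-boxes, was lower, at -0.81 ± 0.05 at ZT7 and -0.77 ± 0.06 at ZT13 (limma adjusted p = 1.27e-09 and 1.62e-08). Per1 was lower at ZT7 and higher at ZT1, with differences of -0.62 ± 0.08 and 0.45 ± 0.09 (limma adjusted p = 1.10e-05 and 0.00360), the same directions as Dbp and Ciart. At ZT1 Per3 was higher too, by 0.52 ± 0.07 (limma adjusted p = 1.27e-04), and these 2 were the core genes called there. At ZT19 3 were higher and 0 lower. A rhythm was called for 7 of the 11 in CON, for 3 in TSR and, as a difference, for 7. With 24 arrays the core genes called were 0 at ZT1 and 1 lower at ZT7 and at ZT13, Per2 at -0.57 and -0.90. That fit called 6 core genes as higher at ZT19, where 44.2% of all tested genes were higher. A core gene rhythm was then called for 1 in CON, 0 in TSR and 1 in the difference.

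Of 13 other clock-controlled genes 10 were tested, and these went both ways. At ZT7 3 were higher and 3 lower, among them Tsc22d3, a glucocorticoid-induced gene, higher by 0.66 ± 0.10 (limma adjusted p = 6.26e-05), and Rgs16, a regulator of G protein signalling, lower at -1.07 ± 0.07 (limma adjusted p = 2.28e-09). At ZT13 3 were higher and 4 lower, and at ZT1 1 was higher and 1 lower. At ZT19 4 were higher and 0 lower. In this list 5 genes had a called rhythm in CON, 5 in TSR and 5 in the difference. With 24 arrays 0 were called at ZT1, ZT7 and ZT13. The same fit had 6 higher and 2 lower at ZT19, where 44.2% of all tested genes were higher. Its rhythm calls were 1 in CON and 0 in TSR and the difference.

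Markers of the labelled region and of its neighbours also differed between TSR and CON, and not always at the times or in the directions of the clock output genes. Their lists overlap with those above: Avp, Prok2 and Rgs16 are both suprachiasmatic markers and among the other clock-controlled genes. Avp is also in the paraventricular and supraoptic list, and Rorb is in both the core clock and the thalamus and cortex lists. Counts from these lists are therefore not independent. Of the arcuate and ventromedial markers 9 were tested, and Pomc and Nr5a1, which define those nuclei, lay below the filter. In the 20 arrays 4 of the 9 were lower in TSR at ZT1 and at ZT7, 5 at ZT13 and 4 at ZT19, with 0 higher at any time. The suprachiasmatic nucleus, the master clock next to this region, is itself a rich source of clock transcripts. Of its markers 10 were tested, with Vip and Nms below the filter, and 9 were lower in TSR at ZT7 and 7 at ZT13, the times at which Dbp, Ciart and Bhlhe41 were lower. Their mean log2 signal was 7.67 to 7.73 in CON and 6.999 to 7.05 in TSR at ZT7, and 7.48 to 7.61 and 7.01 to 7.04 at ZT13 in typical arrays. At ZT1, where Dbp and Ciart were higher, this mean was 7.27 to 7.35 in CON and 7.19 to 7.20 in typical TSR arrays. At ZT19 it was 7.49 in the typical control array and 7.52 to 7.66 in TSR. At ZT1 1 of the 10 was lower, and at ZT19 2 were higher. With 24 arrays 1 was lower at ZT7 and 2 at ZT13. That fit had 6 of them higher and 1 lower at ZT19, where 44.2% of all tested genes were higher. Of the arcuate and ventromedial markers 2 were then lower at ZT19 and 0 were called at the other times.

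Of the paraventricular and supraoptic markers 5 of 6 tested were lower at ZT7 and at ZT13, with Crh below the filter. Of the forebrain cholinergic and striatal markers 6 of 7 tested were higher at ZT7, where their mean was 6.29 to 6.53 in CON and 7.70 to 7.80 in TSR, with Chat and Gbx1 below the filter. Of the thalamus and cortex markers 5 of 6 tested were higher at ZT13, where their mean was 6.65 to 6.82 in CON and 7.55 to 7.59 in the typical TSR arrays, with Neurod6 below the filter. At ZT1, where Dbp and Ciart were higher, 4 of 6 oligodendrocyte markers were higher, with a mean of 9.61 to 9.64 in CON and 10.12 to 10.15 in typical TSR arrays. Other lists moved as well in the 20 arrays: at ZT7 4 of 6 neuron markers were higher and 1 lower, and 3 of 5 endothelial markers were higher, with Cdh5 below the filter. The neuron mean at ZT7 was 10.5 to 10.6 in CON and 10.8 in TSR, and the endothelial mean 6.26 to 6.375 and 6.735 to 6.75. The thalamus and cortex mean was 6.61 to 6.70 in CON and 7.07 to 7.12 in TSR at ZT7. Its ZT19 values were 6.46 in the typical control array and 7.24 to 7.305 in TSR. The forebrain cholinergic and striatal mean at ZT19 was 6.30 in that control array and 7.08 to 7.18 in TSR. Of the forebrain cholinergic and striatal markers 3 were higher and 2 lower at ZT13. With 24 arrays 6 of these 7 were higher at ZT7 as well, with 2 endothelial markers and 0 neuron markers, and at ZT13 1 of the 7 was lower and 1 thalamus and cortex marker higher. In that fit 0 paraventricular and supraoptic markers were called at ZT7 or ZT13, and 0 oligodendrocyte markers at ZT1. Some marker levels also differed between times within controls. The forebrain cholinergic and striatal mean in CON was 7.23 to 7.375 at ZT1, 6.29 to 6.53 at ZT7 and 7.06 to 7.19 at ZT13. The suprachiasmatic mean in CON was 7.27 to 7.35, 7.67 to 7.73 and 7.48 to 7.61 at these times. The part of these markers in the differences of Dbp and the other clock output genes, or in their rhythms, was not tested.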

How the data were processed

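RNA of the mediobasal hypothalamus from 24 samples was labelled with biotin, per the labels' protocols. Affymetrix Expression Console is named in the submitters' processing notes, with its version not given in the sources used here; nor are summarization and normalization. The authors deposited log2 signals of 35556 probe sets. Of 853344 cells, 2743 (0.321%) had a displaced decimal point and were restored, 53 could not be and were set to missing, and 9 were missing as deposited; 0 were cells of the 7 genes. Groups came from the descriptions and titles. Of the probe sets, 21789 had 1 gene symbol, 1621 had several and 12146 had none; only the first kind was used. A gene was read from its probe set of highest mean, and those under the 40th percentile of the means (5.84) were removed.

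Fits used limma 3.58.1 (R 4.3.3) with a mean for each of 8 groups, a trend in the moderation and no replicate block. Tests were 2-sided, p-values were adjusted by Benjamini and Hochberg over all genes tested, and an adjusted p under 0.05 passed. The code was tested on simulated data. Other settings covered the arrays, normalization, filter, probe set, moderation, weights and replicate block, and a second Ciart probe set and leaving arrays out of the 20 were added after the data were seen. The genes and lists were chosen with earlier results of these data known. All 7 genes are named, with up to 3 genes of each list in a comparison, those of largest size past the threshold, and the 3 genes most like each of the 7. Same-numbered samples of the 2 conditions had correlated deviations (r over 0.1) in 5 of 12 pairs. Over the 12 pairs r ran from -0.43 to 0.39, and the pairs of ZT19 gave 0.39, 0.17 and 0.27. The numbers were therefore not taken to pair samples. The number of arrays limits the precision.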

Additional observations from a re-analysis of the deposited data

Results flagged for a closer look

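For 4 genes the fitted 24-h rhythm differed between TSR and CON by a test of that difference in the 20 typical arrays, where 29.0% of all genes passed. The limma adjusted p was 3.738e-07 for Dbp, 2.959e-05 for Ciart, 0.001043 for Tef and 0.002074 for Bhlhe41. None of the 4 passed with all 24 arrays. No group held enough arrays for a test of single outlying samples.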

How the results depend on the processing

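With all 24 arrays the numbers of the 7 genes past the threshold were 0, 0, 0 and 1 at ZT1, ZT7, ZT13 and ZT19, 0 in the average, 1 for the rhythm in CON, 0 in TSR and 0 for its difference. In the same order they were 2, 4, 6, 4, 5, 4, 2 and 4 without the narrow arrays, 2, 5, 7, 4, 5, 5, 3 and 5 when the rest was quantile normalized again, and 3, 4, 7, 6, 4, 7, 7 and 7 with array weights, whose estimation did not fully converge. Quantile normalization of all 24 gave 1 at ZT7, at ZT13, in the average and in the difference. Moderation without a trend gave 1 at ZT13 and 2 at ZT19, the other Ciart probe set 2 at ZT19, and the arrays of 1 time alone 4 at ZT7 and 0 at ZT19. The replicate number as a block left each count as it was, 1 at ZT19 and in the CON rhythm and 0 elsewhere, and pairing is not shown by the check of deviations. The share of all genes that passed is given above only for the main fits with and without the narrow arrays. Counts under the other settings, and those with arrays left out below, have no such share beside them. They are therefore not read as particular to these genes.

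Leaving out 1 of the 24 arrays gave 0 to 1 at ZT7, 0 to 2 at ZT13, 0 to 5 at ZT19, 1 to 6 for the CON rhythm and 0 to 4 for the difference. The highest counts came without CON ZT19 replicate 1, and at ZT13 also without TSR ZT1 replicate 3. CON ZT19 replicate 1 is the only typical control array of its time, so without it that group held narrow arrays alone. The SE of the Dbp difference at ZT7 was then 0.18, against 0.25 with all 24 arrays. Counts also grew without CON ZT19 replicate 2 or 3 (1 each at ZT13, 2 for the CON rhythm without replicate 2), TSR ZT1 replicate 3 (2 at ZT19, for the CON rhythm and for the difference) and TSR ZT13 replicate 2 (2 at ZT19 and for the CON rhythm). The 0 at ZT19 came without CON ZT19 replicate 2 or 3 or TSR ZT19 replicate 1 or 2. Within the 20 arrays it gave 1 to 2 at ZT1 and 2 to 5 at ZT7, the lowest without TSR ZT7 replicate 1. Renormalizing the 20 also let Hlf pass for the CON rhythm (limma adjusted p = 0.0402) and the difference (0.0498), and Tef for the TSR rhythm (0.0414).

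Signs turned mostly at ZT1 and ZT19. At ZT1 without the narrow arrays Tef was 0.15, Hlf 0.016 and Bhlhe40 0.17, with renormalization Tef 0.078 and Bhlhe40 0.10, and with array weights Tef 0.17, Hlf 0.038 and Bhlhe40 0.18. Renormalizing the 24 gave Hlf 0.012, and the other Ciart probe set -0.0034. At ZT19 without the narrow arrays Dbp was -0.36, Tef -0.33, Nfil3 -0.20 and Bhlhe41 -0.53, and with renormalization Dbp -0.46, Tef -0.43, Hlf -0.022, Nfil3 -0.24 and Bhlhe41 -0.62. Renormalizing the 24 gave Dbp -0.10, Hlf -0.041 and Ciart -0.11, and array weights turned the average of Tef to 0.17. Leaving out 1 array at a time gave at ZT1 -0.065 to 0.33 for Dbp, -0.55 to 0.15 for Tef, -0.27 to 0.016 for Hlf and -0.84 to 0.17 for Bhlhe40, and for Nfil3 -0.12 to 0.077 at ZT7 and -0.10 to 0.43 at ZT19. The cause of these changes was not tested beyond the arrays left out. With the filter at the 60th percentile Nfil3 was not tested.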
